A study of Mus musculus with 25 samples.

Results

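Neutrophils carry their antimicrobial proteins in granules and fill their cytosol with a pair of calcium-binding alarmins, and 8 genes of that programme were followed here in mouse dorsal root ganglia: S100a8, S100a9, Camp, Ngp, Ltf, Lcn2, Elane and Mpo. They were found by their annotated symbol, each on 1 probe set of the array, among 30142 genes with a symbol of their own. Of the 8, 6 had a mean over the 25 arrays above the brightness limit for testing (4.52 on the log2 scale), as did 20260 genes in all. Elane and Mpo lay below it.

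The ganglia, at lumbar levels L3 to L5, hold the cell bodies of sensory neurons that reach the knee. All mice were male C57BL/6. Surgery on the right knee at an age of 10 weeks was either destabilization of the medial meniscus (DMM), a surgically induced form of osteoarthritis, or a sham operation, and naive mice had none. Ganglia were collected 4, 8 or 16 weeks later, when the mice were 14, 18 or 26 weeks old, and from naive mice of those ages. Every group of treatment and time held 3 arrays except sham at 8 weeks, which held 1 because its other samples failed the submitters' quality control. The labels do not say whether arrays of a group were separate animals, whether animals were pooled, or whether ganglia of both sides were used, so p-values measure the spread between these samples. The values are log2 intensities as deposited.

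S100A8 and S100A9 form the dimer calprotectin, which neutrophils and monocytes release and which signals through the receptors TLR4 and RAGE. Granule proteins are made in sequence as neutrophils mature in the bone marrow: Elane (neutrophil elastase) and Mpo (myeloperoxidase) belong to primary granules of promyelocytes, and Camp, Ngp, Ltf and Lcn2 to secondary granules of later stages. A healthy ganglion holds few neutrophils, many resident macrophages, and blood in its vessels.

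The ganglion labels were borne out by its defining genes. The mean of 9 sensory neuron markers, Scn10a and Prph among them, lay between 13.6 and 14.0 on every array. Of the other cell types that such a dissection can hold, the 12 macrophage markers were all above the median of the array's negative-control probe sets in most arrays. None of 6 T cell markers was. Array medians lay between 4.88 and 4.97, and arrays of a group correlated at 0.993 to 0.998. The median of the negative-control probe sets lay between 5.06 and 5.35 and serves below as a mark of what the array measured as dim. These probe sets were recognised by their identifiers alone, and the mark is strict, lying above the array medians. The 23 background probe sets had array medians of 3.31 to 3.58. A gene below the mark is therefore not shown to be absent. S100a8, S100a9 and Camp were above the negative-control median on 25 of 25 arrays, Ngp on 13, Ltf on 7, Lcn2 on 2, and Elane and Mpo on 0.

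The genes lie in 2 groups of neighbours and 3 single places (assembly GRCm38.p6). S100a8 (chr3:90669071-90670034) and S100a9 (chr3:90692630-90695721) are 22.6 kb apart. Camp (chr9:109847377-109849456), Ngp (chr9:110419808-110423012) and Ltf (chr9:111019292-111042766) lie within 1195.4 kb of chromosome 9. Lcn2 (chr2:32384637-32387739), Elane (chr10:79886312-79888216) and Mpo (chr11:87793784-87804412) stand alone. The 250 bases before the annotated start are shown for S100a8, S100a9, Ngp and Ltf, whose levels varied together from array to array. They are also shown for Lcn2, whose level followed them closely at 16 weeks but less over the 25 arrays. Sequences are from RefSeq (GRCm38.p6), 5′ to 3′ on the gene's own strand, with motif matches in capitals. They cover chr3:90668821-90669070 (plus strand), chr3:90695722-90695971 (minus), chr9:110419558-110419807 (plus), chr9:111019042-111019291 (plus) and chr2:32387740-32387989 (minus).
S100a8: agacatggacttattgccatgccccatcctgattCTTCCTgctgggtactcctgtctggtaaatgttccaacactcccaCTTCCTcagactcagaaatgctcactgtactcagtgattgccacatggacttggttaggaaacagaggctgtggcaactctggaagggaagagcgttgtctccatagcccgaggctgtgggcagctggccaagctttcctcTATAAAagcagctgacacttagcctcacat
S100a9: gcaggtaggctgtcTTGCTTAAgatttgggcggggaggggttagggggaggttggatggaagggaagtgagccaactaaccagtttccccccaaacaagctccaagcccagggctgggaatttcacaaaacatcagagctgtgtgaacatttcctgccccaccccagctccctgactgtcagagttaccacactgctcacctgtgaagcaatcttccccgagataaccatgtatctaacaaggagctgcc
Ngp: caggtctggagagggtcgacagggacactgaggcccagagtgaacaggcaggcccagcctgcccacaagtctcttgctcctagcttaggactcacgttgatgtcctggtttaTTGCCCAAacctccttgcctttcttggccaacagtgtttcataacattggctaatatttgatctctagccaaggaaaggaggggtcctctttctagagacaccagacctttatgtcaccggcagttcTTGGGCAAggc
Ltf: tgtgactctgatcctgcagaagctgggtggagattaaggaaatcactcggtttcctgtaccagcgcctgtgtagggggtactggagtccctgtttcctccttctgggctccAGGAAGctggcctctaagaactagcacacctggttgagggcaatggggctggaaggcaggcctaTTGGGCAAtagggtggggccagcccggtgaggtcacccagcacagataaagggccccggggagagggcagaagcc
Lcn2: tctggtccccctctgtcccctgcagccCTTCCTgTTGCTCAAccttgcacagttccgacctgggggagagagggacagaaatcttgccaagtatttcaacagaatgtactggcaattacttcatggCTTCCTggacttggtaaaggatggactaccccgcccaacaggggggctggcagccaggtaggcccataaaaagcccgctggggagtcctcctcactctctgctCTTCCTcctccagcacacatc

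The motifs searched on both strands were TATAAA (the TATA box), TTNNGCAA (a core recognised by C/EBP factors, which drive granulocyte genes), AGGAAG (a core of PU.1 sites) and an NF-kB core of 10 letters (3 G, 2 of any kind, 2 T, 1 of any kind, 2 C). In the 250 bases before the start of 32851 annotated promoters, they occurred in 12.4%, 9.6%, 29.5% and 4.1%. S100a8 held TATAAA with its first base at -30, counted back from the start, and no TTNNGCAA. TTNNGCAA matches began at -236 in S100a9, at -138 and -11 in Ngp, at -75 in Ltf and at -216 in Lcn2. The letters at -11 in Ngp and at -75 in Ltf were the same, ttgggcaa. AGGAAG matched in S100a8, Ltf, Lcn2, Camp, Elane and Mpo, and the NF-kB core in none of the 8. Promoters of the genes that varied together shared no single motif of the 4, and Lcn2, which varied apart, held the C/EBP core as S100a9, Ngp and Ltf did. These matches describe letters, not bound sites.

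**Figure D1:**
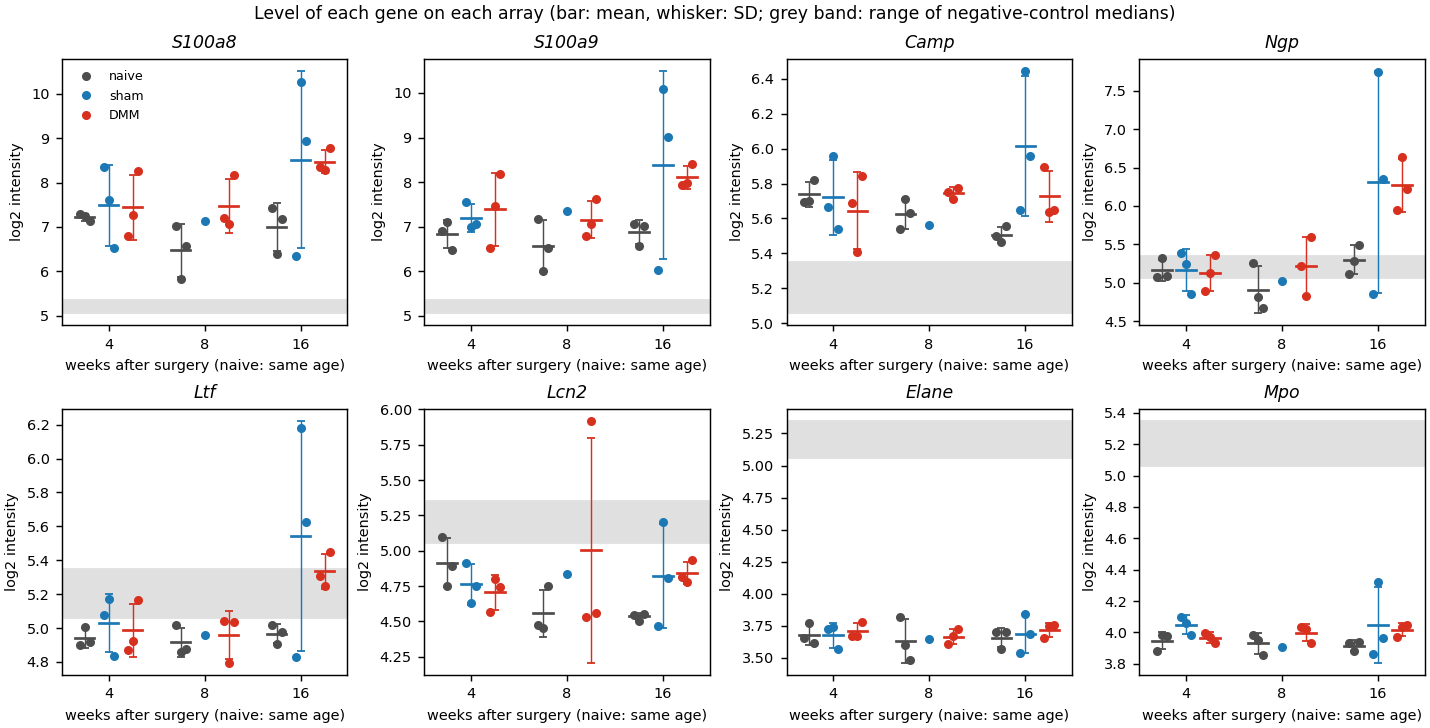
Log2 intensity (vertical axis, its own scale in each panel) of the 8 genes against weeks after surgery, for naive (grey), sham (blue) and DMM (red) mice; each point is 1 array, bars are group means and whiskers SD, and the grey band spans the negative-control medians of 5.06 to 5.35. At 16 weeks the sham arrays of S100a8 run from 6.34 to 10.27 while the DMM arrays stay between 8.29 and 8.78.

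S100a8 and S100a9, the alarmin pair, were highest 16 weeks after surgery of either kind. In naive mice the log2 intensity of S100a8 was 7.28, 7.24 and 7.13 (4 weeks), 7.03, 5.83 and 6.56 (8 weeks) and 7.43, 6.39 and 7.19 (16 weeks). In sham mice it was 8.34, 7.61 and 6.52 (4 weeks), 7.13 on the lone array of 8 weeks, and 6.34, 10.27 and 8.93 (16 weeks). In DMM mice it was 6.81, 7.27 and 8.25 (4 weeks), 7.20, 7.06 and 8.17 (8 weeks) and 8.36, 8.29 and 8.78 (16 weeks). The 3 DMM arrays at 16 weeks sat close together and above every naive array of any age. The sham arrays of that time were split, with replicates 2 and 3 the highest of the whole study and replicate 1 the second lowest.

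S100a9 gave the same split at 16 weeks. Its naive log2 intensities were 6.91, 7.10 and 6.48 (4 weeks), 7.18, 5.997 and 6.51 (8 weeks) and 7.05, 6.57 and 7.02 (16 weeks). Its sham values were 7.56, 6.99 and 7.05 (4 weeks), 7.35 (8 weeks) and 6.02, 10.09 and 9.02 (16 weeks). Its DMM values were 6.53, 7.47 and 8.17 (4 weeks), 6.79, 7.07 and 7.61 (8 weeks) and 7.93, 7.98 and 8.40 (16 weeks). Again DMM and naive did not overlap at 16 weeks, and sham spanned both. From lowest to highest array, S100a8 covered 4.44 log2 units (21.7-fold) and S100a9 4.09 (17.1-fold). Their SDs around the group means, 0.90 and 0.87, were larger than in 99.9% and 99.8% of the genes tested.

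Ngp (neutrophilic granule protein, a cystatin-like protein of secondary granules) was near the control level until 16 weeks. At 4 weeks its log2 intensity was 5.07, 5.32 and 5.09 in naive, 5.38, 5.24 and 4.86 in sham and 4.89, 5.13 and 5.36 in DMM mice. At 8 weeks it was 5.25, 4.81 and 4.67, 5.02, and 5.21, 4.83 and 5.59 in the same order. At 16 weeks it was 5.12, 5.28 and 5.50 in naive, 4.86, 7.74 and 6.35 in sham and 5.95, 6.63 and 6.22 in DMM mice. The 5 highest Ngp arrays of the 25 were the 3 DMM arrays and sham replicates 2 and 3 of 16 weeks.

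Ltf, which encodes the iron-binding lactoferrin, had those same 5 arrays on top. At 16 weeks its log2 intensity was 5.02, 4.91 and 4.98 in naive, 4.83, 6.18 and 5.62 in sham and 5.31, 5.25 and 5.45 in DMM mice. At 4 weeks all 9 arrays lay between 4.84 and 5.17, and at 8 weeks all 7 between 4.80 and 5.04. No array outside 16 weeks reached the DMM values of 16 weeks, and sham replicate 1 of 16 weeks lay among the lowest arrays.

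Camp, the precursor of the antimicrobial peptide cathelicidin, covered a narrow range of 1.04 log2 units. At 16 weeks its log2 intensity was 5.50, 5.46 and 5.56 in naive, 5.65, 6.44 and 5.96 in sham and 5.90, 5.64 and 5.65 in DMM mice. Over the other 16 arrays it ran from 5.40 to 5.96, so only sham replicate 2 stood clear of the range of earlier arrays. Every sham and DMM array was above every naive array of 16 weeks, and sham and DMM overlapped.

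Lcn2 (lipocalin 2, which captures bacterial iron carriers and is also made by injured or inflamed non-myeloid cells) had another pattern. Its log2 intensity at 8 weeks was 4.47, 4.45 and 4.75 in naive mice, 4.84 on the sham array, and 4.53, 5.92 and 4.56 in DMM mice. At 16 weeks it was 4.55, 4.50 and 4.55 in naive, 4.47, 5.20 and 4.81 in sham and 4.82, 4.78 and 4.93 in DMM mice. At 4 weeks the 9 arrays lay between 4.57 and 5.10. The highest value by far came from replicate 2 of DMM at 8 weeks, an array that ranked 18th of 25 for S100a8, 23rd for Ngp and last for Ltf. Lcn2 was above the negative-control median only there and on 1 further array.

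Elane and Mpo, the primary granule genes, were below the negative-control median on every array. Elane ran from 3.48 to 3.84 and Mpo from 3.85 to 4.32, and sham replicate 2 of 16 weeks was the highest array for both. Of the 5 other primary granule genes measured, Prtn3, Ctsg, Bpi and Prss57 were also never above it, while Ms4a3 was above it on 25 of 25 arrays with its lowest value (7.16) on a 16-week DMM array.

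**Figure D2:**
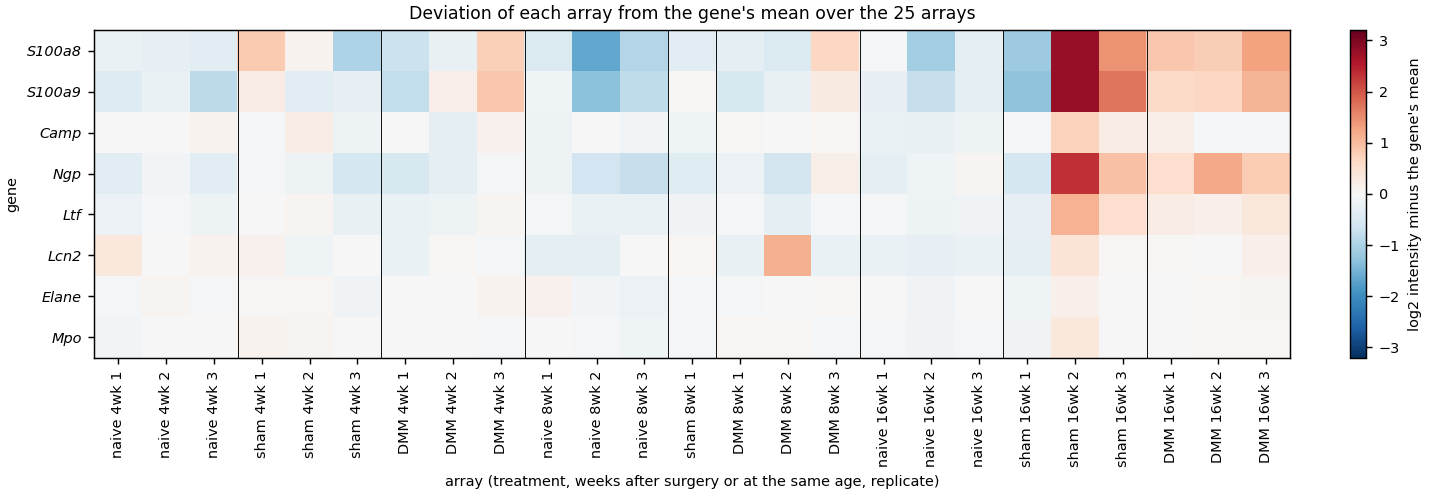
Deviation of each array (columns, by treatment, weeks and replicate) from the gene's mean over the 25 arrays (rows, log2 units, red above and blue below). The columns of sham replicates 2 and 3 and the 3 DMM arrays at 16 weeks are red in S100a8, S100a9, Ngp and Ltf, while Lcn2 is reddest in DMM replicate 2 at 8 weeks.

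DMM against naive at 16 weeks gave the most even contrast. S100a8 was higher by 1.47 ± 0.67 (SE) on the log2 scale, or 2.77-fold (means 8.47 ± 0.27 and 7.003 ± 0.55, SD, n = 3 each), with limma's unadjusted p = 0.0408 and adjusted p = 0.556. Ngp was higher by 0.97 ± 0.43, or 1.96-fold (6.27 ± 0.34 against 5.30 ± 0.19, n = 3 each), with limma's unadjusted p = 0.0348 and adjusted p = 0.547. Its naive values lay near the negative-control level, above the median of their own array on 2 of 3 arrays, so its fold is less certain than that of S100a8. S100a9 differed by 1.22 ± 0.65 (limma adjusted p = 0.610). The remaining differences were 0.37 ± 0.20 for Ltf, 0.31 ± 0.25 for Lcn2 and 0.22 ± 0.15 for Camp, with adjusted p between 0.622 and 0.743.

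None of the 6 tested genes passed an adjusted p of 0.05 in limma, beside 0.0148% of all genes tested. Of the 6, 2 had an unadjusted p under 0.05 with higher values in DMM, against 5.43% of all genes. The DMM arrays lay wholly above the naive arrays in all 6 tested genes, where 6.63% of all genes tested did so. Of the 2 genes below the limit for testing, Mpo did so and Elane did not. Ltf was below the negative-control median on every naive array of 16 weeks, and Lcn2 and Mpo on every array of both groups. Their separations are therefore less certain than that of S100a8. The median difference was 0.34 over the 8 genes and 0.67 over the 6 tested, beside 0.01 over all genes tested. Leaving out any 1 array of these groups kept S100a8 between 1.16 and 1.69 and Ngp between 0.79 and 1.13. In whole tissue such a difference cannot tell apart more cells of a type from more RNA per cell.

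Sham against naive at 16 weeks gave differences as large and far less even. S100a8 was higher by 1.51 ± 0.67 and S100a9 by 1.499 ± 0.65 (limma adjusted p = 0.423 and 0.402). Ngp was higher by 1.016 ± 0.43 (adjusted p = 0.388 in limma), Ltf by 0.58 ± 0.20 (0.304) and Camp by 0.51 ± 0.15 (0.234), while Lcn2 differed by 0.29 ± 0.25 (0.734). The group SDs were 1.998 for S100a8, 2.11 for S100a9, 1.44 for Ngp and 0.68 for Ltf (n = 3), several times those of the DMM arrays.

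No gene of the 6 passed the adjusted threshold of limma, beside 0.00494% of all genes, and 5 had an unadjusted p under 0.05 with higher values in sham, beside 8.53%. Only for Camp did all sham arrays lie above all naive arrays, as 12.2% of all genes did. The values rested on single arrays. Without sham replicate 1, Ltf (0.93, limma adjusted p = 0.0297) and S100a9 (2.68, adjusted p = 0.0373) passed, while over all alternatives their adjusted p ran up to 0.746 and 0.905. Without sham replicate 2, S100a8 was 0.63, S100a9 0.64, Ngp 0.30, Ltf 0.26, Camp 0.295 and Lcn2 0.10. With equal replicate numbers as a block within these 6 arrays, 79 of 20260 genes passed but none of the 6 (lowest adjusted p = 0.149 in limma, and 0.0297 to 0.662 over the alternatives).

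DMM against sham at 16 weeks, the comparison of the joint injury with its surgical control, did not separate the groups. S100a8 differed by -0.04 (95% interval -1.44 to 1.36), S100a9 by -0.27 (-1.62 to 1.08), Ngp by -0.05 (-0.94 to 0.85), Ltf by -0.21 (-0.63 to 0.21), Camp by -0.29 (-0.60 to 0.02) and Lcn2 by 0.02 (-0.50 to 0.54). These intervals include differences of more than 2-fold either way for the alarmins. In limma 0 of the 6 passed and 0 had an unadjusted p under 0.05 (adjusted p from 0.781 to 0.997), beside 0.00494% past and 6.45% at an unadjusted p under 0.05 among all genes. The groups overlapped in all 8 genes, whereas 3.4% of all genes were wholly higher and 7.56% wholly lower. Without sham replicate 2 the sign turned for S100a8 (0.84), S100a9 (0.58), Ngp (0.67) and Ltf (0.11). Without sham replicate 1 all 6 values were negative, from -0.16 for Lcn2 to -1.45 for S100a9. DMM and sham are each set against the same naive arrays, so those contrasts are not independent.

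**Figure D3:**
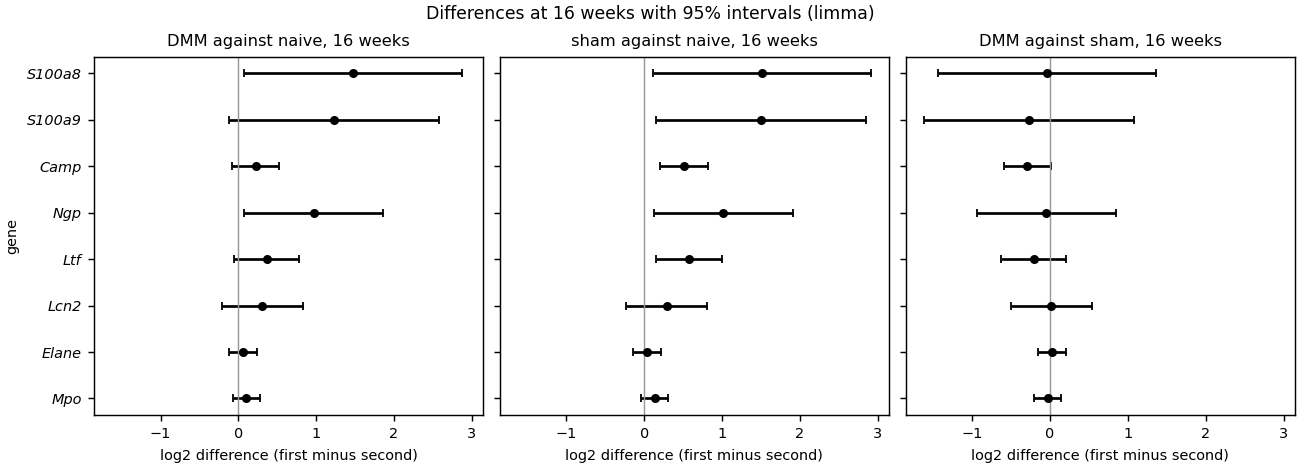
Log2 difference (horizontal axis) of each gene with its 95% interval from limma for DMM against naive, sham against naive and DMM against sham at 16 weeks. S100a8 and Ngp have intervals above 0 for both surgeries against naive, and the intervals for DMM against sham include 0 in all 8 genes.

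**Figure D4:**
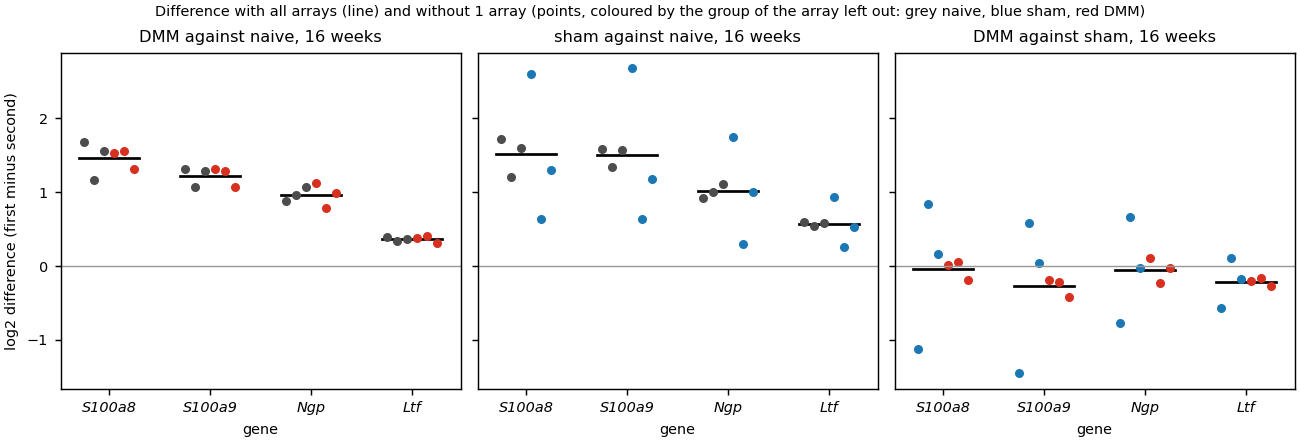
Log2 difference at 16 weeks for S100a8, S100a9, Ngp and Ltf with all arrays (line) and with 1 array left out (points, coloured by the group of that array: grey naive, blue sham, red DMM). Without a sham array the S100a8 difference of sham against naive runs from 0.63 to 2.60, and DMM against naive stays between 1.16 and 1.69 whichever array is left out.

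No difference passed at the earlier times. At 4 weeks limma passed none of the 6 genes, and gave none an unadjusted p under 0.05, in any of 3 contrasts. Of all genes 0.00987% passed and 8.8% had such an unadjusted p for DMM against naive, 0% and 4.68% for DMM against sham, and 0.331% and 15.9% for sham against naive. The S100a8 differences there were 0.22, -0.05 and 0.27 in that order. At 8 weeks S100a8 was 1.001 ± 0.67 higher in DMM than in naive mice (adjusted p = 0.749 in limma), and the groups did not overlap, as in 4.8% of all genes higher in DMM. Lcn2 differed there by 0.44 ± 0.25 (adjusted p = 0.670 in limma), the largest group spread of that gene (SD 0.79, n = 3) coming from replicate 2. None of the 6 passed at 8 weeks, nor had an unadjusted p under 0.05, beside 0.0494% and 8.49% of all genes. Averaged over the 3 times, DMM was above naive by 0.90 ± 0.39 for S100a8 (limma's adjusted p = 0.633) and by 0.79 ± 0.37 for S100a9 (limma's adjusted p = 0.676). These were the 2 of 6 genes with an unadjusted p under 0.05 and higher values in DMM, as were 3.04% of all genes. None passed after adjustment, and 0.0444% of all genes did.

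Over time after surgery the later values were higher, short of the threshold. Between 4 and 16 weeks after DMM, Ngp differed by 1.14 ± 0.43 (adjusted p = 0.152 in limma), S100a8 by 1.03 ± 0.67 and Ltf by 0.35 ± 0.20. For these 3 genes the arrays of the later time lay wholly above the earlier ones, as in 9.04% of all genes. Ngp alone of the 6 had an unadjusted p under 0.05 and a higher later value, as 7.88% of all genes did, and 0 of the 6 but 2.87% of all genes passed the adjusted threshold. After sham surgery the difference was 1.15 ± 0.43 for Ngp (limma's adjusted p = 0.157) and 0.51 ± 0.20 for Ltf (limma's adjusted p = 0.179). Both had an unadjusted p under 0.05 and a higher later value, as 10.3% of all genes did, and 0 of the 6 passed after adjustment, beside 1.76% of all genes. Both rest on the array left in or out: without sham replicate 1 at 16 weeks S100a9 (2.36), Ngp (1.88) and Ltf (0.87) passed, with limma adjusted p of 0.0296, 0.0289 and 0.0244, where over all alternatives it ran up to 0.869, 0.590 and 0.635. Without replicate 2, Ngp was 0.44 and Ltf 0.20.

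In naive mice these differences were nearer 0. Between 4 and 16 weeks Ngp differed by 0.14, S100a8 by -0.21, S100a9 by 0.05 and Ltf by 0.03. Camp (-0.23 ± 0.15) and Lcn2 (-0.38 ± 0.25) were lower at the later time with no overlap, as in 26.2% of all genes, and neither passed in limma (adjusted p = 0.278 and 0.294), though 18.8% of all genes did. None of the 6 had an unadjusted p under 0.05, beside 33.2% of all genes. Between 4 and 8 weeks S100a8 (-0.74) and Lcn2 (-0.36) were lower without overlap, as in 19.5% of all genes, and 0 of the 6 passed or had an unadjusted p under 0.05 in limma, beside 6.28% and 23.4% of all genes. Between 4 and 8 weeks after DMM 0 of the 6 passed or had an unadjusted p under 0.05 (0.0197% and 12% of all genes in limma).

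Whether the surgery effect itself grew was tested directly. The change of the DMM effect against naive from 4 to 16 weeks was 1.25 ± 0.95 for S100a8 and 1.01 ± 0.60 for Ngp, with limma's unadjusted p no lower than 0.112 in any of the 6 genes, 0 of them past the adjusted threshold. Of all genes 0.00494% passed it and 10.6% had an unadjusted p under 0.05. The change of the sham effect was 1.24 ± 0.95 for S100a8 and 0.53 ± 0.21 for Camp (limma's adjusted p = 0.163), the only 1 of the 6 with an unadjusted p under 0.05 and a higher value, as in 14.9% of all genes. None passed, beside 2.09% of all genes. Without sham replicate 1 at 16 weeks, 3 passed: S100a9, Ngp and Ltf.

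The order of the 9 group means was shared by 4 genes at its top. Sham at 16 weeks ranked first and DMM at 16 weeks second for S100a8 (8.52 ± 1.998 and 8.47 ± 0.27), S100a9 (8.38 ± 2.11 and 8.10 ± 0.26), Ngp (6.32 ± 1.44 and 6.27 ± 0.34) and Ltf (5.54 ± 0.68 and 5.33 ± 0.10), n = 3 each. Neither pair of neighbours differs beyond its spread. Below them the other group means ran from 7.49 down to 6.47 for S100a8 and from 7.39 down to 6.56 for S100a9. Naive at 8 weeks was lowest for all 4. Lcn2 had DMM at 8 weeks first (5.003 ± 0.79, n = 3), and that rank came from 1 array.

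Array by array, S100a8, S100a9, Ngp and Ltf varied together. Over the 25 arrays S100a8 correlated with S100a9 at r = 0.944 (Spearman's rho 0.833), with Ngp at 0.885 (rho 0.820) and with Ltf at 0.904 (rho 0.898), and Ngp with Ltf at 0.937 (rho 0.885). For each of these r and rho the adjusted permutation p was at most 0.00007, over 28 pairs of genes. The largest r had a raw p of 1e-05, the smallest that 100000 resamples can give.

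The correlations remained when group means were taken off, though 1 group weighs heavily in that. After each group's mean was taken off, r was 0.931, 0.862, 0.914 and 0.917 in the same order, with adjusted p of 0.0014, 0.0096, 0.0031 and 0.016 when values were permuted within groups. The split sham group of 16 weeks had the largest SD of all groups in these 4 genes, and no r of deviations was computed without it. Over the 22 arrays outside that group, with group means kept in, r was 0.895, 0.771, 0.845 and 0.848 in the same order. Without the 2 arrays farthest from the median of S100a8 its r was 0.901 with S100a9, 0.781 with Ngp and 0.854 with Ltf. Within 4, 8 and 16 weeks, over 9, 7 and 9 arrays, r of S100a8 was 0.724, 0.915 and 0.986 with S100a9, 0.887, 0.816 and 0.931 with Ngp, and 0.840, 0.612 and 0.967 with Ltf. The arrays share their tissue dissection and hybridisation, and no scan date or batch is given in the sources used here.

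The other members followed less, or only in places. Camp correlated with S100a8 at 0.680 (rho 0.474, adjusted permutation p 0.0014 and 0.036), but at 0.347 without the 2 farthest arrays, so this rested on those. Lcn2 correlated with S100a8 at 0.336 (rho 0.545, adjusted p 0.11 and 0.013). Within times its r was 0.204, 0.070 and 0.969, so the relation was seen at 16 weeks alone. Elane, dim as it was, correlated with S100a8 at 0.689 (rho 0.681, adjusted p 0.00044 and 0.00084) and at 0.658 without the 2 farthest arrays, over a total range of 0.36 log2 units. Mpo correlated with S100a8 at 0.681, but at 0.493 without the 2 farthest arrays (rho 0.424, adjusted p 0.059).

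**Figure D5:**
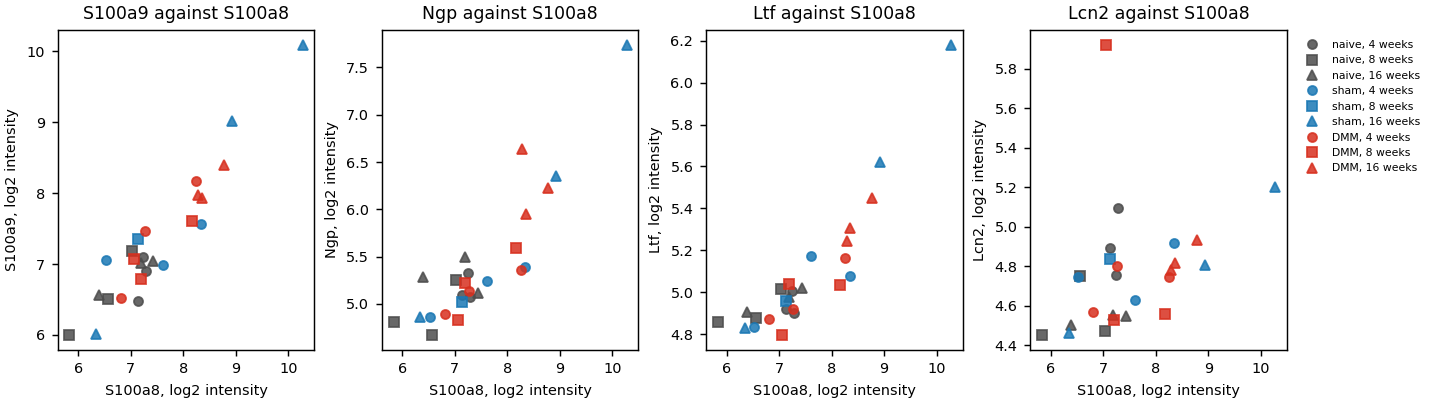
S100a9, Ngp, Ltf and Lcn2 (vertical axes, log2 intensity) against S100a8 (horizontal axis, log2 intensity), 1 point per array, coloured by treatment and shaped by time. The first 3 panels rise along a line (r = 0.944, 0.885 and 0.904), and in the last the DMM array of 8 weeks with Lcn2 at 5.92 lies far above the others.

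By Pearson's r, the gene outside the 8 most like S100a8, S100a9, Ngp and Ltf was Retnlg (resistin-like gamma, made by neutrophils and their marrow precursors). Among the 20260 genes tested it had the highest r with S100a8 (0.779), S100a9 (0.815), Ngp (0.866) and Ltf (0.860) over the 25 arrays. Its log2 intensity at 16 weeks was 4.38, 4.59 and 4.57 in naive, 4.32, 5.62 and 5.24 in sham and 5.08, 4.96 and 4.93 in DMM mice. It was again low in sham replicate 1 and high in replicates 2 and 3 and in all DMM arrays. Its mean of 4.56 was just over the limit for testing (4.52), which it passed only through these high arrays. Its r is therefore no independent support. Retnlg was above the negative-control median on 2 of 25 arrays. Its rho with S100a8 was 0.530, lower than the 0.701 of Gm15991. Next by r for S100a8 came Clec7a, the fungal receptor dectin-1 of myeloid cells (0.620). After it came 6330407A03Rik (0.598), Vmn2r29 (0.595), Gm15991 (0.590), Cdh8 (0.585), Lilr4b (0.579), Gm22516 (0.559), Arhgap30 and Olfr804 (0.550 each). For Camp the most alike were Gm8096 (0.699), 1810014B01Rik (0.664) and the immunoglobulin segment Igkv6-25 (0.663). The rho of Igkv6-25 with Camp was only 0.178. It was above the negative-control median on 1 array, sham replicate 2 of 16 weeks (6.985), on which its r rested. Its mean of 4.53 passed the limit for testing (4.52) only through that array. The 5 genes most like Lcn2 were Igkv6-14 (0.810), Rab27a (0.751), Serpina3n (0.748), Csf3r (0.747) and Sting1 (0.747). Each had its own highest value on replicate 2 of DMM at 8 weeks. Choosing by r with Lcn2 favours genes high on that array, and no r of these 5 genes without it was computed. Igkv6-14 was above the negative-control median on that array alone (8.39), and its rho with Lcn2 was 0.402. Its mean of 4.53 passed the limit for testing (4.52) only through that array.

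Of 16 mature neutrophil genes on that array, 13 were above and 3 below their own median over the 25 arrays. Only 2 of the 16 were above the negative-control median in most arrays. The array was picked for its high Lcn2, and the share of all genes above their own median on it was not computed. Ly6g, Cxcr2 and Csf3r had their highest value of the study there (5.30, 4.95 and 5.24, Cxcr2 still below the negative-control median), while Retnlg was 4.42, against a mean of 4.56 over all arrays. The platelet chemokine Ppbp was 10.09 there and 6.55 and 5.51 on the other two DMM arrays of 8 weeks. Csf3r was also picked by its r with Lcn2, so its peak on that array is no independent support. The part of these genes in the Lcn2 value was not tested.

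Most other genes of the neutrophil programme were dim. Mmp25 of the mature neutrophil list was an exception, with a mean of 11.1 and 25 of 25 arrays above the negative-control median. In naive mice it was higher at 16 than at 4 weeks (limma adjusted p = 0.0335), a contrast that 18.8% of all genes passed. Of 9 further secondary and tertiary granule genes on the array, 6 were never above the negative-control median, Mmp8, Mmp9 and Cd177 among them, although these 3 had their highest value on sham replicate 2 of 16 weeks (4.61, 4.58 and 4.63). Of the 3 tested, 2 were higher and 1 lower in DMM than in naive ganglia at 16 weeks, with 0 past the threshold in limma and 1 at an unadjusted p under 0.05. Of 16 mature neutrophil genes 10 were tested, of which 4 were higher and 6 lower, 0 passed and 1, Retnlg, had an unadjusted p under 0.05. Beside both lists, 0.0148% of all genes passed and 5.43% were higher at an unadjusted p under 0.05 in limma. The granulocyte transcription factors Cebpe and Gfi1, which act in precursors, were never above the negative-control median. Cebpd was 5.76, 5.80 and 5.72 in naive, 6.03, 6.26 and 6.34 in sham and 6.07, 6.06 and 6.09 in DMM mice at 16 weeks, so both surgery groups lay above naive, and it passed the limma threshold in neither contrast (adjusted p = 0.347 and 0.631). Of all genes 12.2% lay wholly above naive in sham and 6.63% in DMM. Of the 3 factors tested, 1 was higher and 2 lower in DMM than in naive ganglia (median -0.01). All 3 were higher in sham than in naive (median 0.06). Among naive mice alone Cebpd was lower at 16 than at 4 weeks (limma adjusted p = 0.0244), and Cebpa at 8 than at 4 weeks (limma adjusted p = 0.0154). Of all genes 18.8% and 6.28% passed in these 2 contrasts.

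The relatives and partners of the alarmins did not pass in the surgery contrasts at 16 weeks. All 10 other S100 genes tested were higher in DMM than in naive ganglia at 16 weeks with a median of 0.11, beside 0.01 over all genes, and 0 passed in limma with 2 at an unadjusted p under 0.05. Over all genes 0.0148% passed and 5.43% were higher at such a p. In naive mice the same 10 were all lower at 16 than at 4 weeks (median -0.29, beside -0.07 over all genes), and 5 passed in limma, where 18.8% of all genes did: S100a4, S100a10, S100a13, S100a16 and S100b, the glial member. Of 10 receptors and signalling partners tested, Tlr4, Ly96 and Myd88 among them, 8 were higher in DMM than in naive ganglia at 16 weeks (median 0.10), with 0 past in limma and 0 at an unadjusted p under 0.05. Bsg, the S100A9 receptor basigin, was lower in naive mice at 16 than at 4 weeks (adjusted p = 0.00205 in limma). Of 14 cytokines and receptors that draw neutrophils, 11 were never above the negative-control median, Cxcl1, Cxcl2, Csf3, Il1b and Il6 among them, and 0 of the 4 tested passed or had an unadjusted p under 0.05 in limma at 16 weeks.

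At 16 weeks macrophage and monocyte markers were higher in both surgery groups than in naive mice. The mean of 12 macrophage markers lay between 6.91 and 7.08 on naive, 7.21 and 7.41 on sham and 7.42 and 7.69 on DMM arrays. All 12 were higher after DMM than in naive mice, with 1, Lyz1, past the threshold in limma and 8 at an unadjusted p under 0.05. Of all genes 0.0148% passed there, and 5.43% were higher at such an unadjusted p. All 12 were also higher in sham than in naive mice, with 0 past in limma and 4 at an unadjusted p under 0.05. Of all genes 0.00494% passed in that contrast, and 8.53% were higher at such an unadjusted p. In naive mice all 12 were lower at 16 than at 4 weeks (median -0.70), and 9 passed in limma, where 18.8% of all genes did. After DMM, 6 were higher and 6 lower at the later time (median -0.01), with 0 past in limma and 0 at an unadjusted p under 0.05. S100a8 differed by -0.21 and 1.03 in the same 2 comparisons.

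Within the sham group of 16 weeks, replicates 1, 2 and 3 had macrophage means of 7.33, 7.41 and 7.21, so replicate 1, low in the alarmins, lay between the other two. The highest macrophage mean of the study, 7.91, was on naive replicate 2 of 4 weeks, where S100a8 was 7.24. Monocyte markers did take the sham order of the alarmins, with means of 5.93, 6.16 and 5.98. They lay between 5.80 and 5.89 on naive and between 6.02 and 6.19 on DMM arrays, with 4 of 4 tested higher after DMM than in naive mice and 0 past (2 at an unadjusted p under 0.05 in limma). Among all genes 0.0148% passed and 5.43% were higher at such a p. The same 4 monocyte markers were higher in sham than in naive mice, with 0 past in limma and 0 at an unadjusted p under 0.05. There 0.00494% of all genes passed and 8.53% were higher at such a p. F13a1 of that list fell in naive mice between 4 and 16 weeks (limma adjusted p = 0.0369). Plac8 and Fcnb were never above the negative-control median. Their part in the alarmin values was not tested.

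Among blood and marrow markers, those of platelets and megakaryocytes had the group order of the alarmins at 16 weeks, with list means of 5.19 in sham, 5.08 in DMM and 5.04 in naive mice. Of 4 tested, 4 were higher in sham and 3 in DMM than in naive, with 0 past in limma and 0 at an unadjusted p under 0.05. Lists of other kinds had that group order too, among them bone and cartilage (4.845, 4.838 and 4.819) and other S100 genes (7.149, 7.124 and 7.048). The macrophage, monocyte and meningeal sheath lists were highest in DMM. Among the DMM arrays the platelet order was not that of the alarmins. The platelet means of DMM replicates 1, 2 and 3 were 5.20, 5.16 and 4.87, beside 4.895 to 5.183 on naive arrays. Replicate 3, the DMM array of highest S100a8, thus lay below every naive array and had the lowest Ppbp of the study (5.04). The erythroid list had its highest mean in naive mice (5.11, against 5.08 in sham and 4.97 in DMM), with 0 of 3 tested higher in DMM than in naive. Across sham replicates 1, 2 and 3 of 16 weeks the list means were 4.94, 5.26 and 5.38 for platelets, 4.86, 5.34 and 5.03 for erythroid and 4.17, 4.40 and 4.29 for B cell genes. Replicate 1, the sham array of lowest S100a8, was the lowest of the 3 in each of these lists. This was not particular to blood: it was also lowest in the T cell list (4.50, 4.62 and 4.52) and several others. It was not lowest for macrophage, mast cell, primary granule, other S100, sensory neuron or glial markers. Alas2, the haem synthesis enzyme of red cell precursors, was 7.59, 8.69 and 7.93 on the sham arrays and 8.49, 9.20 and 6.23 on the DMM arrays, so the DMM array with the highest S100a8 had the lowest Alas2 of the study. Its highest value, 11.82, came from replicate 1 of DMM at 8 weeks, where S100a8 was 7.20. B cell precursor genes (Vpreb1, Vpreb2, Vpreb3, Igll1, Rag2 and Dntt) and the bone genes Bglap, Dmp1 and Sp7 were never above the negative-control median. The mean of 10 markers of the meningeal sheath was 6.38 to 7.42 in naive, 7.22 to 8.19 in sham and 6.47 to 9.43 in DMM mice at 16 weeks, with all 10 higher in DMM than in naive, 0 past in limma and 7 at an unadjusted p under 0.05. In that contrast 0.0148% of all genes passed and 5.43% were higher at such a p. Across sham replicates 1, 2 and 3 the sheath means were 7.22, 8.19 and 7.43, in the order of the alarmins. Slc6a13 of that list was 9.67, 10.42 and 7.33 on the 3 DMM arrays, where S100a8 was nearly level. The part of sheath or blood in the alarmin and granule values was not tested.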

How the data were processed

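Each array of ganglion RNA gave 1 value per probe set. The deposited values are read as log2 intensities from their range (2.23 to 19.70), with the authors' normalization and summary method not given in the sources used here. Per the labels, RNA was biotin-labelled by the manufacturer's standard protocol. Symbols came from the platform annotation, updated by Entrez identifier for 827. Where a gene had several probe sets (355 genes), the one of highest mean was used. Genes were tested if their mean exceeded the 40th percentile of probe set means.

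Limma 3.58.1 in R 4.3.3 was fitted to the log2 values of all 25 arrays with 1 mean per group (16 residual and 3.28 prior degrees of freedom), with Benjamini-Hochberg adjustment over 20260 genes. The lone sham array at 8 weeks entered the fit but no contrast. The procedure was tested on simulated data. Of 21 pairs of arrays with equal replicate numbers 8 had deviations correlated over 0.1, 7 of which were arrays of 16 weeks. All 3 sham with naive pairs of that time exceeded it (0.108 to 0.308), so a pairing there was taken from the data. Correlations used permutation, two-sided. Alternatives were 2 filters, 2 normalizations, probe set averaging, array weights, another prior, a fit of only the arrays compared, replicate blocks and leaving out each array.

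The 8 genes and the gene lists were chosen with earlier results of these data known, among them that neutrophil and marrow genes were higher after DMM than without surgery at 16 weeks, so that contrast is no independent support. Named genes were the 8, up to 4 per list (those past the threshold, then the brightest) and, by r, the 10 most like S100a8, 5 most like Lcn2 and 3 most like each other tested member. Names outside this rule, such as those of genes never above the negative-control median, were chosen after values were seen. Arrays have no read depth, and their number limits the precision.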

Additional observations from a re-analysis of the deposited data

How the results depend on the processing

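The count of the 6 genes past the adjusted threshold was 0 in all 15 comparisons. Over 250 recomputed counts it stayed at 0 in 246. It was 1 for naive mice at 16 against 4 weeks when the fit held only those arrays (Lcn2, limma adjusted p = 0.0348, where the lowest of the 6 genes ran up to 0.409 over the alternatives). Over the arrays left out it ran from 0 to 2 for sham against naive at 16 weeks, from 0 to 3 for sham at 16 against 4 weeks and from 0 to 3 for the change of the sham effect, the upper values all without sham replicate 1 of 16 weeks.

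Of 600 recomputed differences 579 kept direction and side of the threshold, 5 newly passed, all without that array, and 16 changed sign. With 1 array left out, DMM against sham at 16 weeks ran from -1.13 to 0.84 for S100a8, from -1.45 to 0.58 for S100a9, from -0.78 to 0.67 for Ngp, from -0.57 to 0.11 for Ltf and from -0.16 to 0.21 for Lcn2. For DMM at 16 against 4 weeks Camp ran from -0.038 to 0.18, and for sham at 16 against 4 weeks Lcn2 ran from -0.13 to 0.24. Camp after DMM was -0.001 under quantile normalization, and the cause was not tested.

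The labels give equal replicate numbers no meaning, and over all times such arrays did not pair. With the replicate block S100a8 differed by 1.47 (limma adjusted p = 0.608) and Ngp by 0.97 (adjusted p = 0.590) for DMM against naive at 16 weeks, where the alternatives ran from 0.375 and 0.368 to 0.926. In limma the block passed 0 of the 6 genes in any comparison. A block within sham and naive at 16 weeks alone, chosen after seeing the data, also passed 0. The negative-control level bounds what can be said of Ngp, Ltf, Lcn2, Elane and Mpo.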
